A study of Mus musculus with 46 samples.

Results

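Short CDR3 loops of the mouse T cell receptor beta chain, of 11 amino acids or fewer, made up 7846 of the 153913 rearrangements listed in 17 libraries (5.10%). A listed CDR3 was counted as short when its amino acid sequence began with cysteine, ended with phenylalanine or tryptophan and held at most 11 letters. The same frame was required of the 144144 rearrangements of 12 or more amino acids to which they were compared. The short rearrangements carried 510004 reads and encoded 5686 clonotypes, where a clonotype joins 1 V segment and 1 amino acid sequence of the loop.

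The libraries were made from genomic DNA of sorted T cells in a study of pregnancy and experimental autoimmune encephalomyelitis (EAE), an immunization-induced mouse model of multiple sclerosis. Of 46 labelled samples, 17 were analysed and 29 were not analysed here. From non-pregnant C57BL/6 WT mice with EAE, 3 libraries came from T cells of the central nervous system (CNS) and 3 from spleen and lymph nodes (periphery). Their cells are labelled CD8-T cells. The other 11 libraries were made from lymph node and spleen cells of DEREG mice, a strain in which Foxp3 regulatory sequences drive a diphtheria toxin receptor and green fluorescent protein, so that the transgene was carried by both cell types. CD4+Foxp3+ regulatory T cells (Treg) gave 5 libraries from mice with EAE at embryonic day 18 of pregnancy (E18), 1 of the EAE non-pregnant group and 1 of the naive non-pregnant group. CD4+Foxp3- conventional T cells (Tcon) gave 4 libraries, 1 for each pairing of E18 or non-pregnant state with EAE or no immunization (naive). The labels do not state whether a library is 1 mouse, or whether Treg and Tcon libraries share mice, so p-values measure only the spread between these libraries. Cell type in these tables cannot be checked against marker genes, because they hold receptor sequences only.

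The CDR3 is the loop at which the V, D and J segments of the receptor gene are joined, and it makes most of the contact with the peptide in the groove of an MHC molecule. During joining in the thymus, nucleases trim the segment ends and terminal transferase adds bases that no segment encodes. A CDR3 becomes short through trimming, through few added bases or through loss of the D segment, and rearrangements with few added bases can arise many times, so that unrelated mice can carry the same sequence.

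The CDR3 sequences below carry the results that follow. They are read on the coding strand from the conserved cysteine codon to the last phenylalanine codon, and capitals mark bases that the deposited table assigns to no segment. All V, D and J segments in them belong to the beta locus on chromosome 6 (mm10). The first was the most abundant short sequence of any library, the next 3 encode 1 amino acid sequence found in 12 libraries, and the next 3 encode 1 found in all CNS libraries.
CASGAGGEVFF, TRBV13-2 with TRBJ1-1: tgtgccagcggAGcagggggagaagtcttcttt
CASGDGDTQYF, TRBV13-2 with TRBJ2-5, in 9 libraries: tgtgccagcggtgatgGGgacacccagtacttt
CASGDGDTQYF, in 2 libraries: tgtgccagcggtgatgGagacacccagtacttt
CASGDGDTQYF, in 1 library: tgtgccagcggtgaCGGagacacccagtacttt
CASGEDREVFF, TRBV13-2 with TRBJ1-1, 1388 reads: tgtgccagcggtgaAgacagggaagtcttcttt
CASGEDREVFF, 1142 reads: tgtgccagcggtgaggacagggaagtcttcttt
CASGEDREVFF, 777 reads: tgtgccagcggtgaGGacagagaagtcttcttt
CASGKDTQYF, TRBV13-2 with TRBJ2-5, largest of a Treg library: tgtgccagcggGAaagacacccagtacttt
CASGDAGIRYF, TRBV13-2 with TRBJ2-7, large in the same Treg library: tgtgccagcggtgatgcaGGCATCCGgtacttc
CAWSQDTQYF, TRBV31 with TRBJ2-5, in 3 Treg libraries: tgtgcctggagtcaggacacccagtacttt
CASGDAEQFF, TRBV13-2 with TRBJ2-1, with no added base and present in 5 libraries: tgtgccagcggtgatgctgagcagttcttc
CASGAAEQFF, the most abundant short TRBV15 clonotype of the Treg libraries: tgtgccagcggggcggctgagcagttcttc
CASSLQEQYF, the most abundant short TRBV12-1 clonotype of the Treg libraries: tgtgccagctctctACAAgaacagtacttc
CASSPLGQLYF, TRBV2 with TRBJ2-2, the most abundant short TRBJ2-2 clonotype of the Treg libraries: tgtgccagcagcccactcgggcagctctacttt

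Library totals were between 278420 and 571124 reads over 1698 to 19898 rearrangements. The number of cells behind a library is not given in the sources used here, and PCR copies were not marked with molecular identifiers, so an interval on a share covers counting error alone. The file names carry 3 library codes, one for all Treg, one for all Tcon and one for all CNS and periphery libraries, so that code and cell type cannot be told apart. Many large rearrangements of one library also appear at a very low share in others of the same code. A filter that dropped a rearrangement under 1% of its largest share within the code removed 0% to 21.8% of the short rearrangements of a library, and results that rest on sharing are given with and without it.

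Most short CDR3s sat at the limit of the class. Of the 7846, 6153 had 11 amino acids (78.4%), 1296 had 10, 253 had 9, 86 had 8, 39 had 7, 15 had 6 and 4 had 5. Just inside the limit, CDR3s of 11 amino acids were 4.08% ± 0.44 of the rearrangements of a library, and just outside it, CDR3s of 12 amino acids were 11.3% ± 0.90 (SD, n = 17). The most frequent length was 14, at 30.3% ± 0.80 of rearrangements. All 4 CDR3s of 5 amino acids lacked a D segment. TRBV4 CASSF had 240 reads in Treg EAE E18 replicate 1, TRBV13-3 CATLF had 4 reads in Treg EAE E18 replicate 2, and TRBV3 CTQYF in Tcon EAE non-pregnant replicate 2 and TRBV20 CGASF in CNS replicate 3 had 1 read each.

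**Figure D1:**
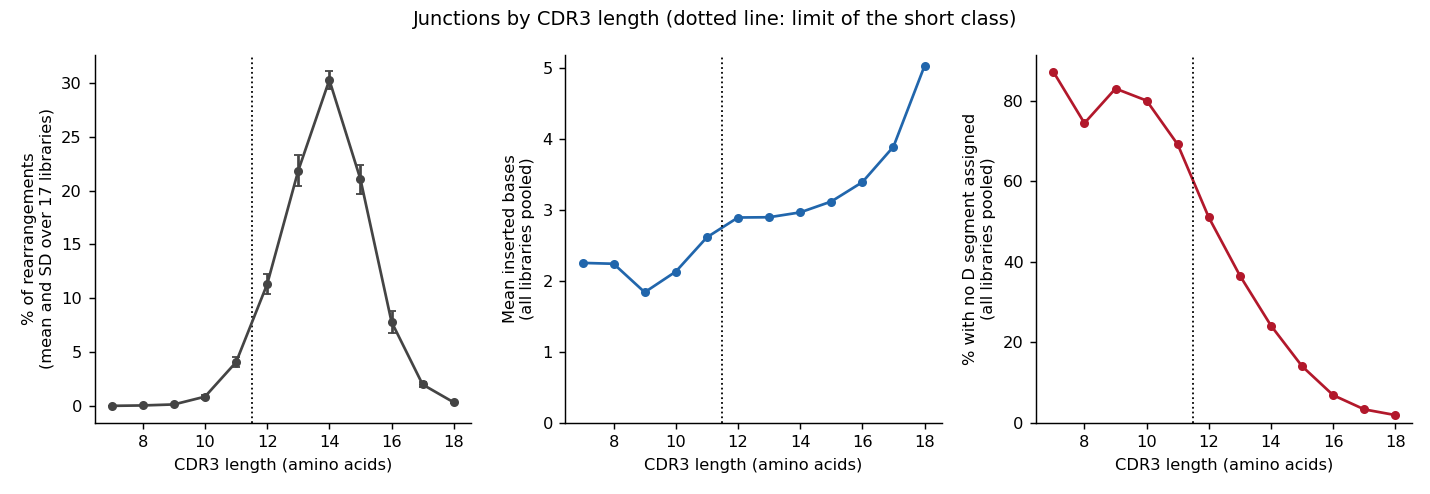
Junctions by CDR3 length from 7 to 18 amino acids. From left, the share of rearrangements at each length (mean and SD over 17 libraries), the mean number of added bases and the share with no D segment (all libraries pooled); the dotted line marks the limit of the short class. CDR3s of 11 amino acids held 2.62 added bases and 69.1% lacked a D segment, against 2.90 bases and 51.0% at 12 amino acids.

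Short junctions differed from longer ones in what they had kept of each segment, and because these measures are parts of the length itself they are given without a test. Short CDR3s held 13.2 ± 0.167 bases of V and 14.9 ± 0.317 bases of J, against 14.3 ± 0.0738 and 18.6 ± 0.129 bases in the rest (SD over 17 libraries). The difference between the classes was larger on the J side than on the V side. No D segment was assigned in 71.9% ± 2.39 of short rearrangements, against 25.5% ± 1.72 of the rest. Where one was assigned, it was TRBD1 in 72.0% ± 6.22 of short rearrangements, against 53.7% ± 2.58 of the rest, and it covered 6.54 ± 0.197 bases, against 8.28 ± 0.133.

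Short rearrangements held 2.53 ± 0.107 added bases, against 3.04 ± 0.0549 in the rest, and 25.9% ± 1.97 of them held none, against 16.0% ± 0.869. The plot of junctions by length pools rearrangements with and without a D segment. From 11 to 12 amino acids, added bases rose from 2.62 to 2.90 and the share without a D fell from 69.1% to 51.0%. Where no D was assigned, all bases between V and J count as added. Such short rearrangements held 2.79 ± 0.120 added bases, against 4.34 ± 0.0855 in the rest. With a D assigned they held 1.87 ± 0.193, against 2.59 ± 0.0564. The V and J stretches overlapped in 11.5% ± 1.72 of short rearrangements, against 2.18% ± 0.223 of the rest. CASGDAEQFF above is such a case, with 17 bases assigned to V and 17 to J in a sequence of 30 bases. A missing D is the table's assignment, since a D trimmed to a few bases cannot be told apart from added ones. Assigned D stretches had at least 5 bases in both classes and were not compared with a germline D sequence, so the share of TRBD1 and the bases covered are the assignment of the table as well.

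TRBV13-2, a member of the Vβ8 family, was the V segment used most by short CDR3s. It made up 20.3% ± 6.16 of short rearrangements and 15.1% ± 3.48 of the rest (SD, n = 17), and it was higher among short ones in 16 of 17 libraries. TRBV31 followed at 9.61% ± 2.86 of short and 6.71% ± 1.496 of the rest, TRBV20 at 8.73% ± 1.61 and 4.51% ± 0.885, TRBV16 at 6.39% ± 1.68 and 5.97% ± 0.586, and TRBV3 at 6.14% ± 2.14 and 8.59% ± 1.60. TRBV31 and TRBV20 were higher among short rearrangements in all 17 libraries, TRBV16 in 7, and TRBV3 in 0. These segments end in different numbers of germline bases, so the choice by length bears on them and no test is given.

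By segment, the share of a segment's own rearrangements that was short was highest for TRBV30 (13.5% of 520 rearrangements), TRBV20 (9.71%) and TRBV15 (7.94%), all libraries pooled. It was lowest for TRBV5 (1.42%), TRBV2 (2.28%) and TRBV17 (2.88%). TRBV30 was rare, and its share over libraries was 11.4% ± 6.42 (n = 17).

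Use of J segments by short CDR3s was narrower. TRBJ2-7 made up 35.3% ± 2.98 of short rearrangements and 18.4% ± 1.42 of the rest, and TRBJ1-1 made up 18.1% ± 3.44 and 10.01% ± 1.16. Both were higher among short rearrangements in 17 of 17 libraries. TRBJ2-5 stood at 17.2% ± 3.21 and 16.3% ± 1.10, TRBJ2-1 at 7.42% ± 1.77 and 11.3% ± 1.496, and TRBJ2-4 at 6.41% ± 1.97 and 9.51% ± 1.30. Of their own rearrangements, 9.53% of TRBJ2-7, 8.46% of TRBJ1-1 and 5.23% of TRBJ2-5 rearrangements were short, against 1.48% of TRBJ2-2, 2.01% of TRBJ1-3 and 2.37% of TRBJ1-6 rearrangements. The first J cluster as a whole held 26.9% ± 3.18 of short rearrangements and 28.2% ± 1.73 of the rest.

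**Figure D2:**
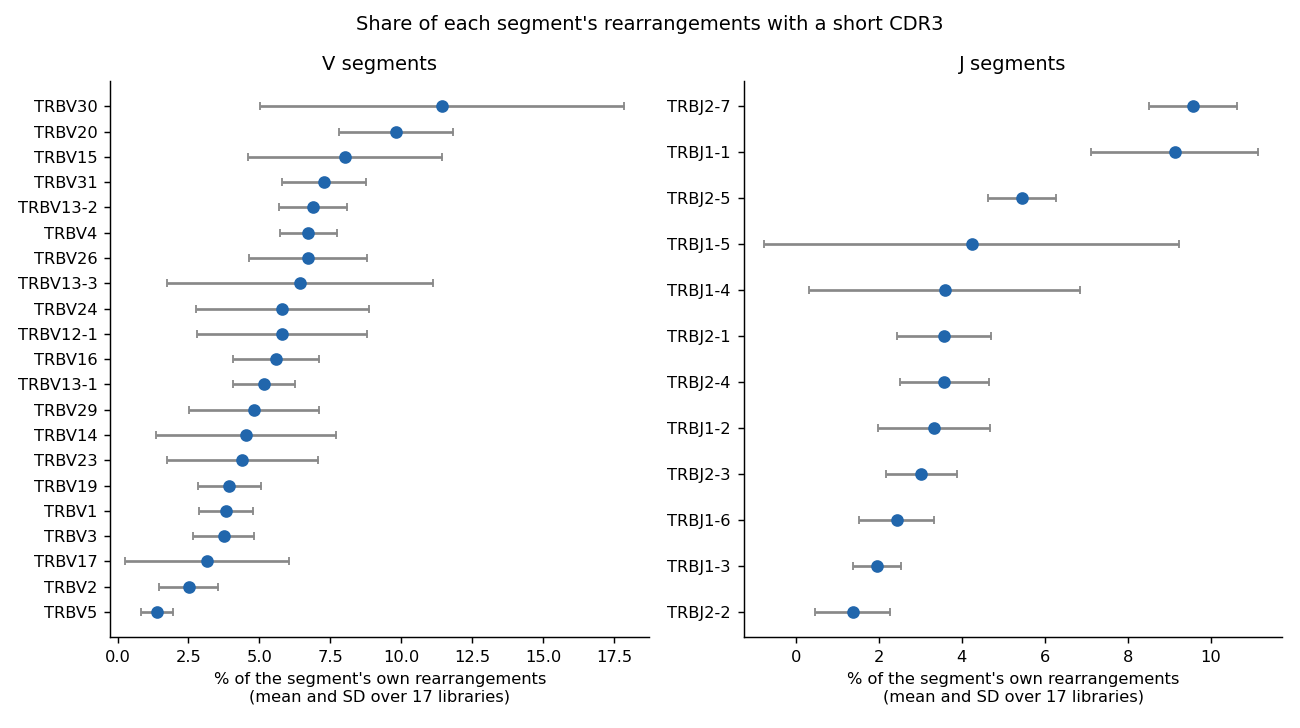
Share of each segment's own rearrangements that had a short CDR3, for V segments (left) and J segments (right) with at least 500 rearrangements. Points are means and bars SDs over 17 libraries; TRBV30 and TRBJ2-7 stand highest, and TRBV5 and TRBJ2-2 lowest.

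Of 245 V-J pairs seen among short CDR3s, TRBV13-2 with TRBJ2-7 was the most used, at 7.99% ± 1.99 of short rearrangements and 2.74% ± 0.474 of the rest (SD, n = 17). TRBV13-2 with TRBJ2-5 reached 4.09% ± 1.91 of short rearrangements, TRBV13-2 with TRBJ1-1 3.54% ± 2.96, TRBV31 with TRBJ2-7 2.92% ± 1.31 and TRBV20 with TRBJ2-7 2.75% ± 0.645. In the middle of CDR3s of 11 amino acids (positions 5 to 7 from the cysteine), glycine held 16.1% ± 1.33 of the places and aspartate 15.1% ± 2.35. Glycine is encoded by the D segments, and TRBV13-2 itself can encode the aspartate that follows CASG.

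Treg libraries held a larger share of short CDR3s than Tcon libraries. Short CDR3s were 5.83%, 6.02%, 5.80%, 5.75% and 5.69% of rearrangements in Treg EAE E18 replicates 1 to 5, 5.55% in Treg EAE non-pregnant and 5.54% in Treg naive non-pregnant mice. In Tcon libraries they were 4.67% in EAE E18, 5.06% in EAE non-pregnant, 4.70% in naive E18 and 4.58% in naive non-pregnant mice. The lowest Treg value lay above the highest Tcon value. Treg libraries averaged 5.74% ± 0.168 (SD, n = 7), against 4.75% ± 0.213 in Tcon libraries (n = 4). Within the same combination of immunization and gestational state, the Treg share was higher by 0.864 percentage points on average and higher in 3 of 3 combinations. The exact two-sided permutation test within combinations gave p = 0.0417, the smallest that its 24 assignments of 7 Treg and 3 Tcon libraries allow, and 0.667 after Benjamini-Hochberg adjustment over the 16 comparisons of this kind. At a limit of 10 amino acids the difference was 0.206 percentage points (exact p = 0.0833). Treg libraries listed 4565 to 16002 rearrangements, against 8528 to 19898 in Tcon libraries, and after thinning every library to 278420 reads the difference was 0.864 percentage points.

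**Figure D3:**
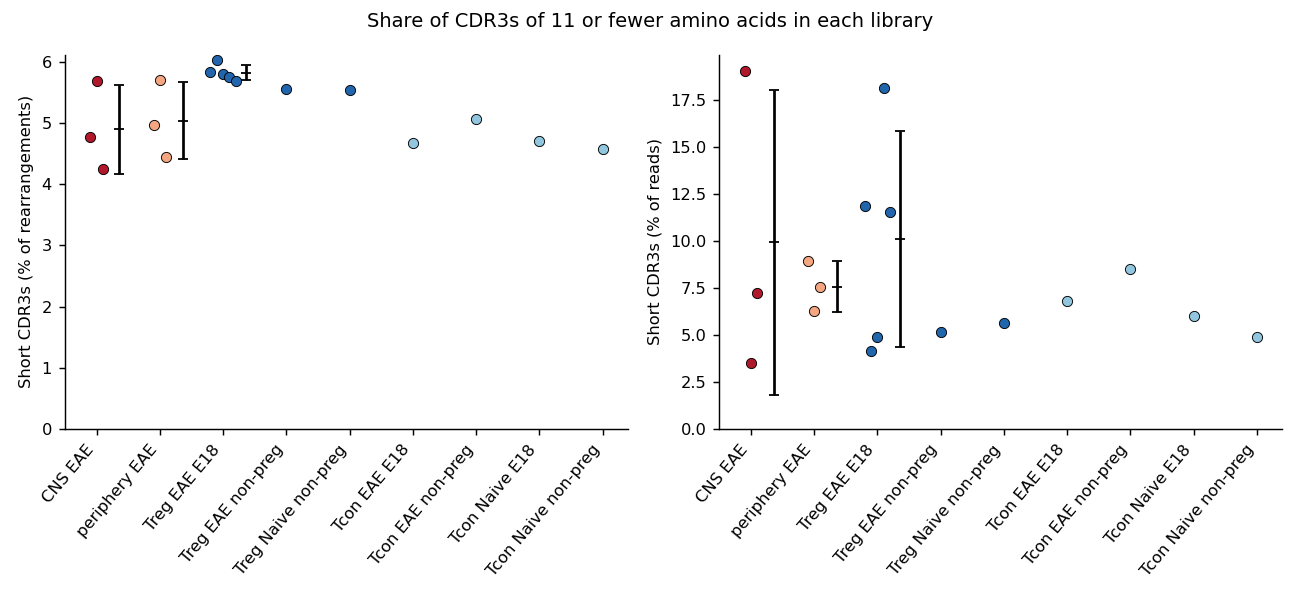
Short CDR3s as a percentage of the rearrangements (left) and of the reads (right) of each library, by group. Points are libraries and bars are the mean and SD of groups with several libraries; by rearrangements all Treg libraries sit above all Tcon libraries, and by reads the groups overlap.

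By reads the Treg and Tcon libraries overlapped. Short CDR3s took 11.8%, 4.17%, 4.92%, 18.1% and 11.5% of reads in Treg EAE E18 replicates 1 to 5, 5.17% in Treg EAE non-pregnant and 5.65% in Treg naive non-pregnant mice. In Tcon libraries they took 6.79% in EAE E18, 8.53% in EAE non-pregnant, 6.00% in naive E18 and 4.92% in naive non-pregnant mice. The values within Treg EAE E18 spanned more than the whole Tcon range, and the difference within combinations was 0.236 percentage points (exact permutation p = 0.917). Added bases per short rearrangement numbered 2.50 ± 0.106 in Treg (n = 7) and 2.48 ± 0.0203 in Tcon libraries (n = 4), with exact permutation p = 0.917.

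Short rearrangements of 3 segments were more frequent in Treg than in Tcon libraries, namely those of TRBV12-1 (a Vβ5 segment), TRBV15 and TRBJ2-2. Rearrangements were counted per segment and length class and tested with edgeR's quasi-likelihood test, and 10 of the 58 counts tested passed an adjusted p of 0.05 (17.2%). The fitted differences are relative to the rearrangements of both length classes. They thus include the larger share of short CDR3s in Treg libraries, unlike the percentages of short rearrangements given below. The Tcon naive E18 library has no Treg counterpart, so its own term takes it up and the fitted differences rest on the other 3 Tcon libraries. Of the 58, 24 were counts of short CDR3s, and 3 of the 24 passed, all higher in Treg. The share among short ones was thus no larger than the background.

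TRBV12-1 (chr6:41113567-41114067) was used by 4.63%, 5.44%, 2.67%, 5.41% and 7.73% of short rearrangements in Treg EAE E18 replicates 1 to 5, 5.35% in Treg EAE non-pregnant and 3.77% in Treg naive non-pregnant mice. In Tcon libraries the values were 0.932% in EAE E18, 0.234% in EAE non-pregnant, 1.504% in naive E18 and 1% in naive non-pregnant mice. The groups did not overlap, and the edgeR log2 difference was 2.68 (SE 0.41, adjusted p = 0.000183). TRBV12-1 was also higher among longer CDR3s, by 2.05 on the log2 scale (SE 0.22, adjusted p = 4.01e-06), so its difference was not limited to short ones. Its own rearrangements were short in 6.46% ± 1.67 of cases in Treg (n = 7) and 4.03% ± 2.15 in Tcon libraries (n = 4), which within combinations gave an exact permutation p of 0.0833.

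TRBV15 (chr6:41141211-41141658) was used by 7.18%, 7.25%, 6.95%, 7.34% and 5.76% of short rearrangements in Treg EAE E18 replicates 1 to 5, 6.91% in Treg EAE non-pregnant and 5.03% in Treg naive non-pregnant mice. In Tcon libraries the values were 3.11% in EAE E18, 1.87% in EAE non-pregnant, 4.76% in naive E18 and 4.00% in naive non-pregnant mice. All 7 Treg values lay above all 4 Tcon values, and the edgeR log2 difference was 1.14 (SE 0.24, adjusted p = 0.00192). Among longer CDR3s TRBV15 differed by 0.28 (SE 0.15, adjusted p = 0.226) and did not pass, although its shares of 2.87% to 4.45% in Treg and 2.46% to 2.71% in Tcon libraries did not overlap there either. The length class itself also differed within TRBV15, since 10.7% ± 2.43 of its rearrangements were short in Treg (n = 7), against 6.04% ± 1.96 in Tcon libraries (n = 4). This difference of 4.73 percentage points within combinations had an exact permutation p of 0.0417, unadjusted and the smallest possible, among 30 such values computed for 15 segments; TRBV3, at 0.848 points, had the same p. Without the Tcon EAE E18 library the short TRBV15 difference had a log2 value of 1.05 and an edgeR adjusted p of 0.0725.

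TRBJ2-2 (chr6:41542957-41543007) was rare in short CDR3s everywhere. Its share of short rearrangements in Treg libraries was 2.55%, 3.93%, 3.21%, 3.09% and 2.16% in EAE E18 replicates 1 to 5, 1.90% in EAE non-pregnant and 2.74% in naive non-pregnant mice. In Tcon libraries it was 1.40% in EAE E18, 1.40% in EAE non-pregnant, 2.38% in naive E18 and 1.44% in naive non-pregnant mice. Groups overlapped, and the log2 difference of 1.07 (SE 0.27, edgeR adjusted p = 0.0109) rested on 6 to 24 rearrangements a library. Among longer CDR3s TRBJ2-2 differed by -0.02 (SE 0.10, adjusted p = 0.932). The call was lost with DESeq2 (log2 1.02, adjusted p = 0.674), after thinning to equal reads (0.91, edgeR adjusted p = 0.0718) at a limit of 12 amino acids (0.67, edgeR adjusted p = 0.108) and without a filter on low counts (1.05, edgeR adjusted p = 0.0522). It was also lost without the Treg naive non-pregnant (edgeR adjusted p = 0.0947), the Tcon EAE E18 (0.207) or the Tcon naive non-pregnant library (0.0933).

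**Figure D4:**
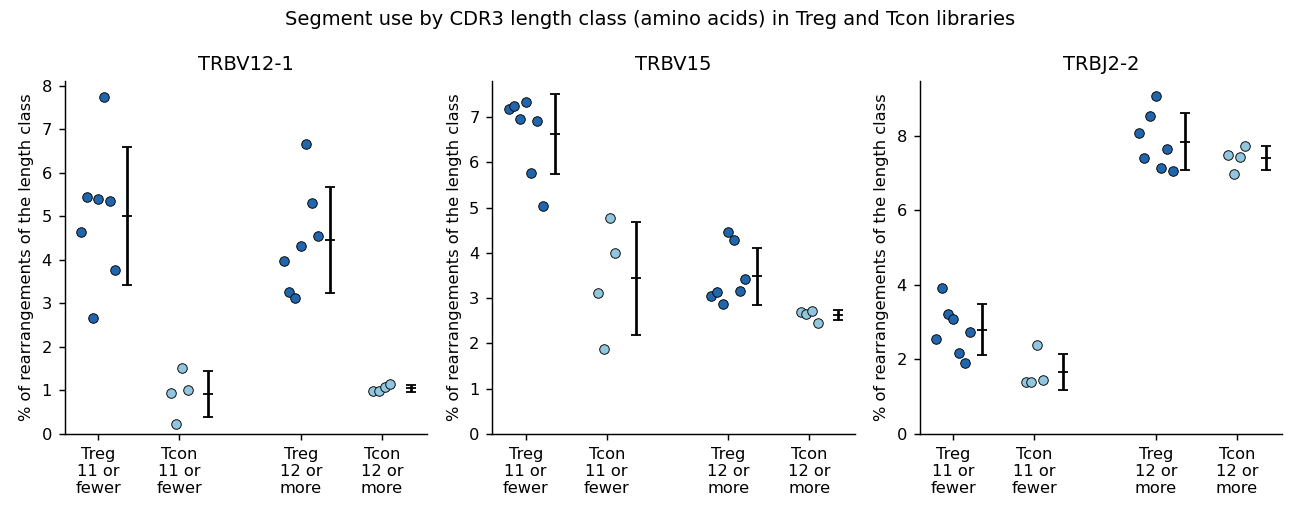
Percentage of rearrangements that used TRBV12-1, TRBV15 or TRBJ2-2, within CDR3s of 11 or fewer amino acids and within those of 12 or more, in Treg and Tcon libraries. Points are libraries and bars are the mean and SD (n = 7 and 4); TRBV12-1 and TRBV15 do not overlap between the cell types in either length class.

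The other 21 short counts did not pass. TRBV3 stood at 0.43 (SE 0.17, adjusted p = 0.108), TRBV4 at -0.38 (SE 0.19, adjusted p = 0.177), TRBV19 at -0.36 (SE 0.21, adjusted p = 0.253) and TRBV31 at -0.13 (SE 0.17, adjusted p = 0.584), all log2 differences of edgeR for Treg over Tcon. TRBV31, TRBV4 and TRBV19 passed as lower in Treg among longer CDR3s, at -0.53, -0.54 and -0.34 on the log2 scale, and the difference between the length classes was not tested for them. At a limit of 12 amino acids, 8 of 31 short counts passed in the same test (background 21.5%), with TRBJ2-7, TRBV12-1, TRBV15, TRBV2, TRBV3 and TRBV30 higher and TRBV19 and TRBV4 lower in Treg.

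By reads, no short segment passed between Treg and Tcon libraries in edgeR, where 1 had an unadjusted p under 0.05 and 1.47% of all counts of reads passed. TRBV12-1 then differed by 2.96 (adjusted p = 0.735) and TRBV15 by 1.09 (adjusted p = 0.974) on the log2 scale. The middle of CDR3s of 11 amino acids held leucine in 8.36% ± 0.829 of places in Treg (n = 7) and 6.69% ± 0.481 in Tcon libraries (n = 4), and aspartate in 13.5% ± 1.21 and 15.3% ± 0.952. Their exact permutation p-values were 0.0417 and 0.0833, and both were 0.571 after adjustment over 40 values for 20 residues in this comparison and the one between tissues.

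In the CNS the share of short CDR3s lay within the peripheral range for 2 libraries and below it for 1. It was 4.77%, 5.68% and 4.24% of rearrangements in CNS replicates 1 to 3, and 4.97%, 5.69% and 4.44% in periphery replicates 1 to 3. Each CNS library lay below the periphery library of the same number, by less than the spread between numbers. The mean difference was -0.135 percentage points (exact permutation p = 0.7, smallest possible 0.1). With the replicate number as a block the exact permutation p was 0.25, the smallest that this blocked test can give. By reads, short CDR3s took 19.03%, 3.52% and 7.21% in the CNS and 8.94%, 6.25% and 7.53% in the periphery (exact permutation p = 0.9). The CNS held both the highest and the lowest of these 6 values.

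A single clonotype set the highest value. TRBV13-2 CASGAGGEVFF, listed first above, accounted for 15.4% of reads in CNS replicate 1 (95% interval by Wilson's method, 15.3% to 15.6%) and was the largest of all clonotypes there. Without it, short CDR3s took 3.59% of the reads of that library, close to the 2.93% of CNS replicate 2 without its own largest short clonotype. The clonotype was listed with 40 and 16 reads in CNS replicates 2 and 3 and with 16 to 42 reads in the periphery, and after the carry-over filter the printed sequence stayed only in CNS replicate 1. Of the 16 reads in CNS replicate 3, 2 belonged to 2 other sequences with 1 read each.

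TRBV13-2 (chr6:41121396-41121832) took 33.1%, 25.7% and 36.6% of short rearrangements in CNS replicates 1 to 3, against 20.8%, 21.9% and 13.5% in periphery replicates 1 to 3. The groups did not overlap. Its log2 difference among short CDR3s was 0.83 (SE 0.26), with an edgeR adjusted p of 0.0617, and among longer ones 0.68 (SE 0.25, adjusted p = 0.111). None of 16 short counts passed in edgeR, where 2 had an unadjusted p under 0.05 and 6.12% of all 49 counts tested passed. DESeq2 also called 0 of them. Short TRBV13-2 did pass with at least 2 reads (edgeR adjusted p = 0.00364), when thinned (0.0330), without a filter (0.00772), at a limit of 12 (0.0119) and without periphery replicate 2 (0.0355) or 3 (0.0466), and with the replicate block its adjusted p was 0.209. By reads TRBV13-2 passed among short CDR3s (log2 2.97, edgeR adjusted p = 0.00953) with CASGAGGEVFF included, and 5 others passed as lower in the CNS, namely TRBJ1-5, TRBJ1-6, TRBJ2-2, TRBV14 and TRBV2 (6 of 31, against a background of 12.1%).

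The 3 Vβ8 segments together made up 39.6% ± 5.63 of short CNS rearrangements and 26.3% ± 5.21 of short peripheral ones (SD over 3 libraries each), against 27.8% ± 4.25 and 21.7% ± 0.580 of longer ones. Segments favoured by natural killer T cells (TRBV13-2, TRBV29 and TRBV1) held 37.3% ± 4.94 of short rearrangements in the CNS and 27.6% ± 3.56 in the periphery. TRBV13-2 alone held 31.8% and 18.7%, so TRBV29 and TRBV1 together held less in the CNS than in the periphery. Short TRBV1 had a log2 difference of -0.62 (SE 0.45, edgeR adjusted p = 0.363). The part of this list in the result was not tested. In Treg libraries this list held 23.2% ± 2.25 of short rearrangements (n = 7), against 25.6% ± 1.91 in Tcon libraries (n = 4).

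TRBJ2-2 was not seen in the short CDR3s of the CNS. None of 352 short rearrangements pooled over the 3 CNS libraries used it, against 22 of 1318 in the periphery (1.85%, 0.746% and 2.63% in replicates 1 to 3). A bound of 3 over 352 is 0.852%, which leaves out the spread between libraries, and periphery replicate 2 lay below it. Longer CDR3s used TRBJ2-2 in 6.81% ± 0.724 of CNS and 6.91% ± 0.224 of peripheral rearrangements (n = 3 each). The count was too low for the edgeR filter, and the share of TRBJ2-2 rearrangements that were short differed by -1.27 percentage points (exact permutation p = 0.1, the smallest possible). TRBJ1-1 rearrangements ran the other way, short in 11.0%, 14.4% and 10.6% of cases in the CNS and 9.49%, 10.5% and 7.09% in the periphery, with p = 0.1 in the same exact test. Aspartate held 19.4% ± 0.635 of the middle places of CNS CDR3s of 11 amino acids and 14.2% ± 0.531 of those in the periphery (exact permutation p = 0.1; 0.571 adjusted).

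Between pregnant and non-pregnant mice, and between mice with EAE and naive mice, no difference in the share of short CDR3s passed a test. E18 libraries held 5.49% ± 0.563 (n = 7) and non-pregnant libraries 5.18% ± 0.462 (n = 4), and within cell type and immunization the difference was -0.00346 percentage points (exact permutation p = 1, smallest possible 0.0417). Libraries from mice with EAE held 5.55% ± 0.452 (n = 8) and naive libraries 4.94% ± 0.522 (n = 3). Within cell type and gestational state the difference was 0.158 percentage points (exact permutation p = 0.75, smallest possible 0.25). The Treg naive library has no E18 counterpart, so permutation tests of E18 used 7 E18 and 3 non-pregnant libraries. The Treg EAE E18 libraries have no naive counterpart, so permutation tests of EAE used 3 EAE and 3 naive libraries. The means are of all libraries. By reads, the within-stratum differences were 1.43 percentage points for E18 and 1.31 for EAE, with exact permutation p-values of 0.625 and 0.5. The E18 difference in reads was -0.330 points without the Treg EAE non-pregnant library and 3.01 without either Tcon EAE library. The EAE difference in reads was 0.154 points without either Tcon non-pregnant library and 2.20 without either Treg non-pregnant library. In edgeR 0 of 24 short counts passed in either comparison, with 1 unadjusted p under 0.05 in each, 0% of 58 counts passing and 0 short calls by DESeq2. Most strata held 1 library on each side, which limits what these comparisons could detect.

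Short clones were larger on average. Within a library, the mean number of reads per short rearrangement over that of the rest had a log2 value of 0.54 ± 0.79 (SD, n = 17), above 0 in 13 of 17 libraries (sign-flip permutation test, 100000 resamples, p = 0.0108). It was highest in CNS replicate 1 (2.23) and Treg EAE E18 replicate 4 (1.86), and lowest in CNS replicate 2 (-0.72) and Treg EAE E18 replicate 2 (-0.56). The value of CNS replicate 1 rested mainly on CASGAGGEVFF, which held 81.2% of the short reads of that library. With the median in place of the mean, chosen after seeing the data, the log2 value was 0.35 (permutation p = 0.0405). At a limit of 10 amino acids it was 0.48 (permutation p = 0.0640). The ratio passed the test in none of the 4 comparisons between groups, and its difference was -0.30 for Treg over Tcon (exact permutation p = 0.542) and 0.27 for E18 over non-pregnant (exact permutation p = 0.625). The E18 difference was 0.02 without the Treg EAE non-pregnant library and 0.52 without either Tcon EAE library.

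In all, 182 short clones held over 0.1% of the reads of their library. They were 4.37% ± 5.09 of short rearrangements, against 2.33% ± 3.07 of the rest (SD, n = 17), and the short share was higher in 10 of 17 libraries. Rearrangements with 1 read were 29.1% ± 12.4 of short ones and 30.03% ± 11.8 of the rest.

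The most abundant short clonotype of a library ranged widely in size. In Treg EAE E18 replicate 4, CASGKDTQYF took 4.29% of reads and was the largest of all clonotypes, and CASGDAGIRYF took 3.43%. TRBV16 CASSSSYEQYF took 1.49% of Treg EAE E18 replicate 1 and TRBV2 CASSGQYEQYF 0.981% of replicate 5, each of rank 2 in its library. The leading short clonotypes of Treg EAE E18 replicates 2 and 3, Treg EAE non-pregnant and Treg naive non-pregnant libraries, TRBV20 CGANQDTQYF, TRBV20 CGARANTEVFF, TRBV20 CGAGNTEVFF and TRBV13-2 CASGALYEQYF, took between 0.0979% and 0.228%. In Tcon libraries TRBV1 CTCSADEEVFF led EAE E18 with 1.37%, and TRBV13-2 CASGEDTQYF led EAE non-pregnant with 0.470%. TRBV16 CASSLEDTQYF led naive E18 with 0.0780%, and TRBV26 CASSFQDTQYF led naive non-pregnant with 0.0669%. In the CNS TRBV13-2 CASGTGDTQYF (0.596%) and TRBV13-2 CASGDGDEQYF (1.63%) led replicates 2 and 3. In the periphery TRBV13-2 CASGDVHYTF, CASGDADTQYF and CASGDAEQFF led with 0.135% to 0.216%. All 6 leading short clonotypes of the CNS and periphery thus used TRBV13-2.

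Short clonotypes were shared between libraries more often than longer ones. On average 43.7% ± 15.9 of the short clonotypes of a library were found in another library, against 33.6% ± 14.5 of the rest (SD, n = 17). The difference of 10.1 ± 3.02 percentage points was above 0 in 17 of 17 libraries (sign-flip permutation test, 100000 resamples, p = 2e-05). After the carry-over filter it was 9.56 points, and counting only libraries with another code it was 8.98. Counting only partners whose nucleotide sequence differed, it was 6.08 points. These 3 values had the same permutation p. The filter acts within a code and does not remove low counts in libraries of another code. A clonotype shared between libraries counts in each of them, so the values of the libraries are not independent. The sign-flip p-values do not allow for that.

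**Figure D5:**
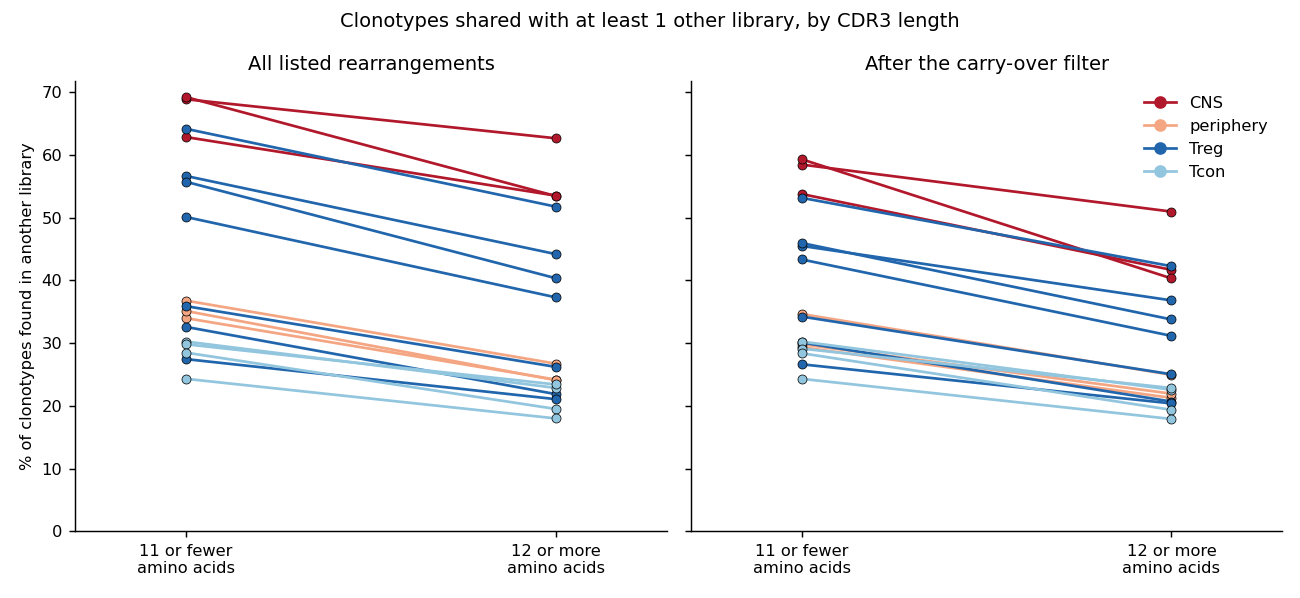
Percentage of the clonotypes of a library that were found in at least 1 other library, for CDR3s of 11 or fewer and of 12 or more amino acids, before (left) and after (right) the carry-over filter. Each line is a library; every line slopes down to the longer class.

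Over all libraries, 996 of the 5686 short clonotypes (17.5%) were found in 2 or more libraries, against 12.8% of the 114998 longer ones, and 92 in 5 or more. More than 1 nucleotide sequence encoded 12.9% of short and 10.9% of longer clonotypes. After the carry-over filter 896 short clonotypes (15.8%) were found in 2 or more libraries, against 11.6% of the longer ones, and 74 in 5 or more. CNS libraries held 62.9% to 69.2% of their short clonotypes in common with another library, against 34.0% to 36.8% in the periphery. This contrast was not limited to short clonotypes, since longer ones stood at 53.5% to 62.7% in the CNS and 24.1% to 26.7% in the periphery. After the filter the ranges of short clonotypes were 53.8% to 59.3% in the CNS and 29.4% to 34.7% in the periphery. Counting only libraries with another code, they were 30% to 47.7% in the CNS and 23.2% to 27.98% in the periphery.

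TRBV13-2 supplied 9 of the 10 short clonotypes found in most libraries, with TRBV16 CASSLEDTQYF the other one. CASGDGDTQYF led with 12 libraries (11 after the filter) and 7 nucleotide sequences, of which 3 are printed above. They differ in the capital bases between the V and J ends. It held over 0.1% of reads in 3 libraries and at most 1.53%. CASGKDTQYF, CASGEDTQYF and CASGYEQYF were found in 11 libraries, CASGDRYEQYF in 10, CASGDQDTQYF, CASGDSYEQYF and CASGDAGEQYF in 9, and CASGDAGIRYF in 8. After the filter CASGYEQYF was left in 10 libraries, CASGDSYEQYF in 8 and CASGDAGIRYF in 2, while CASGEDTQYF, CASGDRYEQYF, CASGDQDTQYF, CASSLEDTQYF and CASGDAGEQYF lost none. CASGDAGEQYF was encoded by 11 nucleotide sequences, the most among these 10.

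The 2 large clonotypes of Treg EAE E18 replicate 4 show the effect of the filter. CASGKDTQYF and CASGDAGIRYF were listed in all 7 Treg libraries, and after the filter 0 short clonotypes remained in all 7. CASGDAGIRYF had 9538 reads in replicate 4, 1 to 86 reads in the other Treg libraries and a single nucleotide sequence with 8 added bases. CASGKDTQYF kept 6 libraries after the filter and 4 nucleotide sequences, among them the one above, with GA added, in 2 libraries. TRBV15 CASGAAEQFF was similar, with 2826 reads in replicate 4 and 2 to 24 reads in 4 other Treg libraries. CNS replicate 3, of another code, listed the same sequences, with 7 reads of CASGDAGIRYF, 13 of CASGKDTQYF and 2 of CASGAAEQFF. The filter acts within a code and left these in place. Whether such low counts are cells or carry-over cannot be told apart in these tables.

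Within groups, 48 of the 285 short clonotypes of the CNS were found in at least 2 of 3 CNS libraries (27 of 267 after the filter), against 75 of 1171 in the periphery (53 of 1156). In Treg libraries 425 of 2625 were found in at least 2 of 7 libraries (325 of 2625 after the filter), against 173 of 2398 in at least 2 of 4 Tcon libraries (170 of 2398). The filter removed more in CNS and Treg than in Tcon libraries, and the number of libraries differs, so these shares were not tested against each other. Counts of this kind are not given for longer clonotypes. In Tcon libraries 7 short clonotypes were found in all 4 both before and after the filter.

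TRBV13-2 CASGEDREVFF and TRBV5 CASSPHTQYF were the short clonotypes found in all 3 CNS libraries after the filter. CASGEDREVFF had 27, 760 and 2506 reads in CNS replicates 1 to 3 (7, 759 and 2506 after the filter), against 10 reads in periphery replicate 1 and 0 in the other periphery libraries. The 3 sequences printed above made up all of these reads. In CNS replicate 2 the one with GG added held the reads that remained, and in CNS replicate 3 the other ones held them. In CNS replicate 1 the 7 reads left were of the one with GG added. Their share was only just above the filter's limit of 1% of that sequence's share in CNS replicate 2. Presence in all 3 CNS libraries after the filter rested on those 7 reads. The same amino acids thus stood at 0.205% and 0.745% of reads in CNS libraries 2 and 3 from different nucleotide sequences.

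Of the 7 short clonotypes with over 0.1% of reads in at least 2 libraries (also 7 after the filter), 5 used TRBV13-2, namely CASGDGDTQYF, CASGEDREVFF, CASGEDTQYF, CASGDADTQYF and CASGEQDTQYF. The others were TRBV1 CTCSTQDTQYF and TRBV31 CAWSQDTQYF. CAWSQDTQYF took 0.182%, 0.102% and 0.180% of reads in Treg EAE E18 replicates 1, 2 and 4, and was listed in 5 Treg, 2 Tcon and 0 CNS or periphery libraries. All 7 of its libraries remained after the filter, with 4 nucleotide sequences. The one printed above was the only one in those 3 Treg libraries.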

How the data were processed

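Receptor beta rearrangements were amplified by PCR from genomic DNA with primers for mouse V and J segments, per the labels' protocols. The deposited tables give, per CDR3 nucleotide sequence, raw read counts and the fraction of the table's reads; the authors' fraction equals the count over the table's total. Per the submitters' processing notes the build is mm10, and the program that assigned the segments is not given in the sources used here. Segment positions came from RefSeq annotation of GRCm38.p6, the same build. None of the rearrangements was out of frame or had a stop codon (0 of each).

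Members were counted per library, each rearrangement once or by its reads. Added bases are those between the listed segment ends. Single values were compared by exact two-sided permutation within strata, or by sign flips over 17 libraries. Rearrangements per segment and length class with a mean of at least 10 entered a quasi-likelihood test in edgeR 4.0.16 (R 4.3.3, TMM, Benjamini-Hochberg at 0.05), V and J fitted apart and adjusted together, with combination, or cell type with the other factor, as a term; a group of 1 library was assumed to vary like the others. The library totals of the edgeR test were summed over both length classes. DESeq2 1.42.0 was the alternative. Carry-over was filtered at 1% of the largest share within a library code.

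Members, segments and lists were chosen with earlier results of these data known. Clonotypes and segments were named by rule: the 5 most used V, J and V-J pairs, the 3 highest and 3 lowest by own short share, short counts past the threshold, the largest short clonotype per library, the 10 most shared, those over 0.1% in 2 or more libraries and the shortest. The sequences of TRBV12-1, TRBV15 and TRBJ2-2 clonotypes and clonotypes found in all libraries of a group were named after their values were seen.

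CNS and periphery samples share replicate numbers. Same-numbered libraries deviated together over 49 counts (correlations 0.221, 0.729 and 0.577), a pairing that comes from the data and not from a label. The main comparisons of CNS and periphery were unpaired, and the replicate number as a block was run as a further setting. With the block 0 of the 49 counts of both length classes passed in edgeR, against 3 of 49 without it.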

Additional observations from a re-analysis of the deposited data

Results flagged for a closer look

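Among the 16 values checked in the group of 5 Treg EAE E18 libraries, 1 stood apart: TRBV15 took 5.76% of the short rearrangements of replicate 5, while the other 4 libraries lay between 6.95% and 7.34%. Chance alone sets apart about 1 in 20 groups.

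The E18 minus non-pregnant difference in the share of short rearrangements was 0.265 percentage points in Treg libraries from mice with EAE and -0.393 in Tcon libraries from mice with EAE. All 5 Treg E18 libraries lay above the non-pregnant one, and the single Tcon E18 library lay below its counterpart. The difference between the cell types was not tested.

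CDR3s of 11 or fewer amino acids that lacked the frame of an opening cysteine and a closing phenylalanine or tryptophan were outside every comparison. They made up 211 rearrangements with 3769 reads in all, between 0.00178% and 0.342% of the reads of a library, and exceeded 3 reads in 17 libraries.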

How the results depend on the processing

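The higher share of short rearrangements in Treg kept its direction under all settings run. Its difference was 0.206 percentage points (exact p = 0.0833) at a limit of 10 amino acids and 0.781 to 2.09 under the others; leaving out libraries gave 0.723 to 1.05, where fewer assignments leave no p under 0.05. With V or J use made equal, chosen after seeing the data, it was 0.982 or 0.825. The sharing difference was 6.08 to 10.6 percentage points. The clone size difference missed the threshold only at a limit of 10 (log2 0.48, permutation p = 0.0640).

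Short segment counts called for Treg over Tcon were 3 of 24 tested (10 of 58 over both length classes). They were 0 of 33 by reads (1 of 68 over both classes) and 8 of 31 at a limit of 12 (14 of 65). At a limit of 10 they were 0 of 5 (5 of 39), as few short counts reached the filter there. Without 1 library they were 1 to 3, the low value without Tcon EAE E18 replicate 5. For CNS over periphery they were 0 of 16 (3 of 49 over both classes), but 6 of 31 by reads (8 of 66). At a limit of 12 they were 2 of 28 (3 of 61), and with at least 2 reads 1 of 14 (5 of 46). When thinned they were 1 of 16 (5 of 49), and without a filter 2 of 33 (8 of 68). Without 1 library they were 0 to 1, the 1 being TRBV13-2 without periphery replicate 2 or 3. Short TRBV31, not called, changed sign by reads (log2 0.30), at a limit of 10 (0.061) and without Tcon EAE E18 replicate 5 (0.11), and ran between -0.24 and 0.11 without 1 library.

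The other differences, none of them called, changed sign in some settings. At a limit of 10, CNS minus periphery was 0.0608 for the share of rearrangements, -1.10 for reads, -0.00809 for added bases and -1.46 for log2 clone size; Treg minus Tcon was -0.0771 for reads and 0.0260 for added bases; EAE minus naive was -0.0975 for added bases. At a limit of 12, added bases were -0.0157 (CNS), -0.0233 (E18) and -0.0299 (EAE), and the Treg reads -0.210. The E18 share was 0.104 with at least 2 reads, 0.0210 with clonotypes counted once, 0.0192 thinned and 0.0232 with equal V use; EAE added bases were -0.00918, -0.0314 and -0.0478 in the first 3 of these, and Treg added bases 0.0452 thinned. With equal J use the CNS share was 0.000708, and with medians the CNS log2 clone size -0.91.

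Without 1 library, CNS differences ran between -0.526 and 0.195 (share), -2.20 and 5.55 (reads) and -0.58 and 0.90 (log2 clone size). Treg differences ran between -1.31 and 2.03 (reads), -0.0347 and 0.00884 (added bases) and -0.50 and 0.0043 (log2 clone size, the high value without Treg EAE non-pregnant replicate 5 or Tcon EAE non-pregnant replicate 2). E18 differences ran between -0.138 and 0.191 (share), -0.330 and 3.01 (reads) and -0.0297 and 0.0284 (added bases), and EAE differences between -0.00473 and 0.250 (share) and -0.0105 and 0.00763 (added bases). The causes were not tested. With the replicate block, 0 short counts were called for CNS over periphery, as without it, and the block changed no other call on short CDR3s. The share difference of -0.135 had p = 0.25 by exact sign exchange, the smallest possible with the block.

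Few libraries a group limit these comparisons, and a count of 0 allows 0.000525% to 0.00108% of the reads of a library. Segment assignment by the deposited tables was taken as given, and the number of cells is unknown.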

Other observations

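Short clonotypes of the CNS overlapped with both DEREG cell types, whose libraries carry other codes. Of the 285 short CNS clonotypes, 70 (24.6%) were also found in Treg EAE E18 libraries, where they were 4.64% of 1508 short clonotypes, and 55 (19.3%) were found in Tcon libraries, where they were 2.29% of 2398. After the carry-over filter the numbers were 66 of 267 and 49 of 267. That filter does not act between codes, so low counts carried between codes would remain in these overlaps. In periphery libraries, which share their code, 88 of the 285 were found (30.9%), where they were 7.51% of 1171, and 55 of 267 after the filter. The library numbers differ between these groups, and the overlaps were not tested against each other. Overlaps of longer clonotypes are not given here.

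The Vβ5 segments together held 5.10% ± 1.60 of short rearrangements in Treg (n = 7) and 0.917% ± 0.522 in Tcon libraries (n = 4), against 4.53% ± 1.25 and 1.07% ± 0.09998 of longer ones. The second J cluster held 75.2% ± 3.48 of short rearrangements in Treg and 73.4% ± 1.37 in Tcon libraries.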
